A study of Mus musculus with 6 samples.

Results

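The 8 genes described here are those of the liver X receptors (LXR) and of cholesterol efflux in mouse immature dendritic cells: Nr1h2, Nr1h3, Abca1, Abcg1, Apoe, Mylip, Soat1 and Lpcat3. They were taken by name, through the NCBI Gene numbers of the count files, and all are reported whatever their values. The list itself was chosen with earlier results of these data known. All 8 were among the 17567 rows and all 8 were among the 12209 genes with enough counts to be tested. Cells were grown from bone marrow of male C57BL/6 mice aged 6 weeks, in 10% serum with 20 ng/mL of GM-CSF and 10 ng/mL of interleukin-4, which the controls received too. On day 6 they were enriched with magnetic beads for CD11c, the integrin encoded by Itgax. The labels put 3 samples in the untreated control group and 3 in the group given hydrogen peroxide (H2O2) at 100 µM for 24 h, and RNA was sequenced from DNA nanoballs.

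LXRα, encoded by Nr1h3, and LXRβ, encoded by Nr1h2, are nuclear receptors that pair with a retinoid X receptor (RXR) and are switched on by oxysterols, the oxidised forms of cholesterol that build up in sterol-laden cells. Their best known targets in macrophages and dendritic cells move cholesterol out: Abca1 loads lipid-poor apolipoproteins, Abcg1 loads high-density lipoprotein, and Apoe is itself a sterol acceptor. Other targets lower uptake (Mylip, a ubiquitin ligase) or remodel membranes (Lpcat3, which puts polyunsaturated chains into phospholipids). Soat1 acts on the same pool from the other side, since it esterifies cholesterol for storage in droplets.

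H2O2 replicate 3 was deposited with the same 17567 values as H2O2 replicate 1, so the 2 were counted as 1 library, which left 3 control and 2 H2O2 libraries. Totals ran from 16232604 to 16672491 counts. The labels do not say that samples came from separate mice or cultures, so the p-values reflect the scatter among these libraries alone, and that scatter may be technical. The 5 libraries fell into 2 sets. Set A was control replicate 1 and H2O2 replicate 1, and set B was control replicates 2 and 3 and H2O2 replicate 2. Y-linked genes summed to 102 and 95.1 counts scaled to library size (CPM) in the 2 libraries of set A and to 0.12, 0.30 and 0.45 in the 3 of set B, although every sample is labelled as male. H2O2 was therefore compared with control in an edgeR model with set as a term, and "called" means an adjusted p of at most 0.05 over all 12209 genes. Changes are given as log2 of H2O2 over control, with their SE. Where H2O2 replicate 2 is left out below, the change rests on set A alone, 1 library against 1. Of all genes tested, 480 (3.93%) were called higher and 563 (4.61%) lower, shares that apply to every count of treatment calls below. With group alone and no set term 0 genes were called in either direction and 853 had an unadjusted p under 0.05. No treatment call below thus held in that fit. CD11c matched its label, with Itgax at 1473 to 2177 CPM in the 5 libraries. The 18 listed macrophage and monocyte markers summed to between 32460 and 35770 CPM in controls and to 35980 and 42510 CPM under H2O2, but Chil3 alone made up 83.8% to 89.1% of each sum. The other 17 summed to between 4296 and 5268 CPM in controls and to 5313 and 4615 CPM under H2O2.

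Of the 8 genes, Soat1 was called higher under H2O2 and 0 were called lower. The estimate was positive for 7 of 8, beside 6290 of all 12209 genes tested. Their median log2 change was 0.23 beside 0.01 over all genes tested. At an unadjusted p under 0.05, 3 members were higher (Soat1, Lpcat3 and Abca1). Of all genes tested, 13.7% were higher and 14.1% lower at that level in the same fit, shares that apply to every such count below. DESeq2 and limma with the same set term also called 1 of the 8, higher. Soat1 and Lpcat3 were the 2 members for which every H2O2 library lay above every control library, an order found in 13% of all genes, with the opposite order in 10.7%. Within sets, 5 of the 8 (Abca1, Abcg1, Nr1h3, Soat1 and Lpcat3) were higher in H2O2 than in each control of the same set, and 0 were lower than each. These orders held for 28.5% and 28% of all genes. In bulk RNA, fewer cells of a type and less RNA per cell cannot be told apart.

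**Figure D1:**
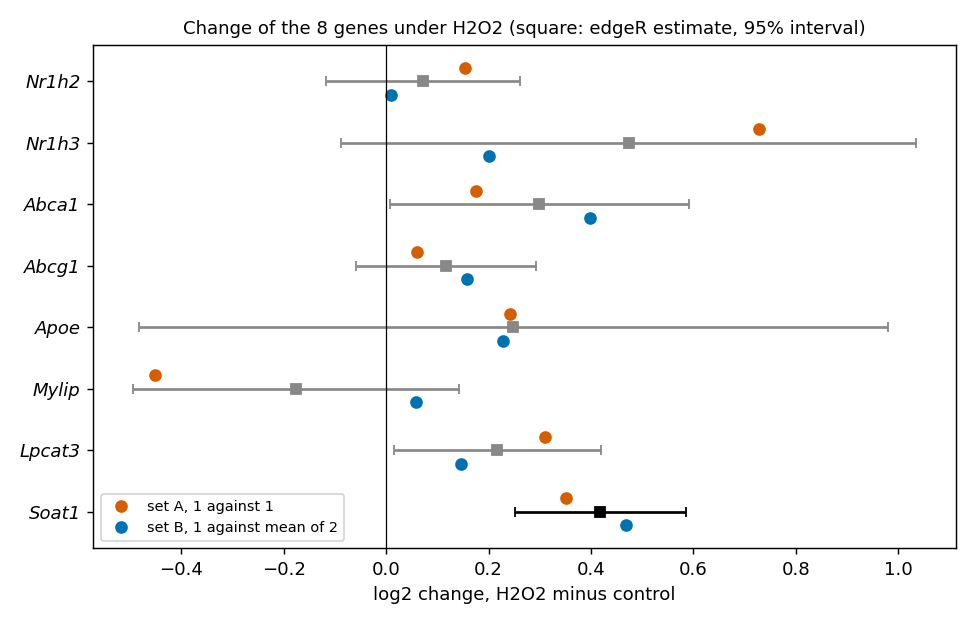
Log2 change of each of the 8 genes, H2O2 minus control: squares are the edgeR estimates with 95% intervals, and circles are the changes in each set. The interval of Soat1, from 0.25 to 0.58, lies farthest above 0, and Mylip is the gene estimated below 0.

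Levels were compared between genes as CPM per kilobase of the longest coding transcript, as mean and range over the 5 libraries. Abcg1 was the highest at 56.1 (42.0 to 69.7) and Soat1 came next at 46.8 (40.5 to 57.8), and these neighbours overlapped. Nr1h2 followed at 29.3 (27.5 to 31.6), clear of Lpcat3 at 18.4 (15.8 to 20.2). Abca1 at 10.4 (5.64 to 16.1) and Mylip at 7.69 (5.74 to 11.9) overlapped, and the range of Abca1 also touched that of Lpcat3. Apoe at 1.25 (0.69 to 1.72) and Nr1h3 at 1.19 (0.90 to 1.91) were lowest and could not be ordered. Apoe, one of the most abundant transcripts of many tissue macrophages, was thus among the 2 lowest here.

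**Figure D2:**
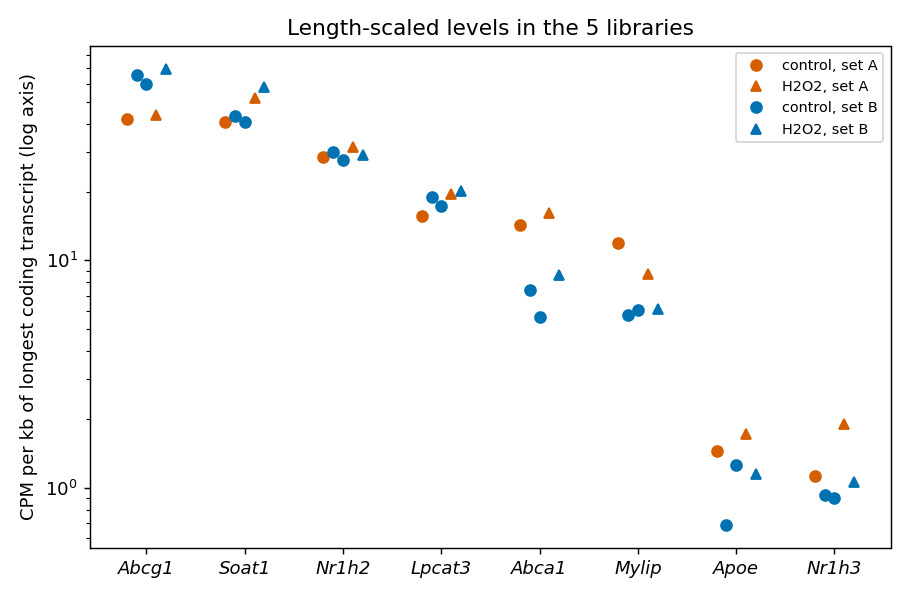
Length-scaled levels of the 8 genes in the 5 libraries, on a log axis in CPM per kilobase of the longest coding transcript, in descending order of the mean. Apoe and Nr1h3 lie near 1 CPM per kilobase, and Abcg1 and Soat1 above 40.

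Nr1h2 and Nr1h3 encode the 2 receptors. Nr1h2 (chromosome 7, 44549616 to 44553968, minus strand, GRCm38.p6) was at 56.7, 60.0 and 55.1 CPM in control replicates 1, 2 and 3 and at 63.1 and 57.9 CPM in H2O2 replicates 1 and 2. The H2O2 values lay within or just above the control range. Its log2 change was 0.07 ± 0.08 (95% interval −0.12 to 0.26; edgeR adjusted p = 0.602), which leaves room for a rise of up to 0.26 or a fall of up to 0.12. Nr1h3 (chromosome 2, 91184061 to 91202829, minus strand) had only 38, 30 and 29 counts in the controls and 63 and 32 under H2O2, which are 2.21, 1.81 and 1.77 CPM against 3.73 and 2.07 CPM. It was above its own controls in both sets, most of all in set A, where the log2 change was 0.73 against 0.20 in set B. The joint change of 0.47 ± 0.24 was not called (edgeR adjusted p = 0.245). Nr1h3 overlaps its neighbour Acp2 only from 91202812, the lowest base of Acp2, to 91202829. Acp2 changed by 0.08 ± 0.10. Per kilobase, Nr1h2 exceeded Nr1h3 by 25.1, 32.4 and 30.5 times in the 3 controls and by 16.6 and 27.3 times under H2O2, so the LXRβ gene was the more abundant in every library.

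The partner genes were taken as a list of 5 LXR and RXR genes, of which 4 were tested. Among these 4, Rxra alone was called, higher, and 0 were called lower, with a median of 0.21. Rxra, which encodes the main partner RXRα, was at 41.6, 49.3 and 49.0 CPM in controls and at 52.5 and 63.2 CPM under H2O2, all above the controls. Its log2 change was 0.35 ± 0.07 (1.28-fold; edgeR adjusted p = 0.0322). DESeq2 did not call it (adjusted p = 0.0934), and without control replicate 2 or 3 or H2O2 replicate 2 the adjusted p lay between 0.0854 and 0.163. Rxrb was the one listed partner estimated lower, by −0.39 ± 0.11, and was not called. Of 12 coregulators, Ncoa3, a coactivator, was lower by −0.28 ± 0.07 (edgeR adjusted p = 0.0492) and 0 were higher. Ncor1, the corepressor that was most abundant of these, changed by −0.04 ± 0.07. Of 8 other nuclear receptors tested, 0 were higher and Vdr, the vitamin D receptor, was lower (−0.36 ± 0.07, edgeR adjusted p = 0.0285). The calls of Ncoa3 and Vdr were lost without control replicate 2, control replicate 3 or H2O2 replicate 2, and that of Ncoa3 also without H2O2 replicate 1 and in DESeq2.

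Abca1 and Abcg1 encode the 2 efflux transporters. Abca1 (chromosome 4, 53030789 to 53159988, minus strand) was at 147, 76.2 and 57.9 CPM in control replicates 1, 2 and 3 and at 165 and 88.4 CPM in H2O2 replicates 1 and 2. The groups overlapped, because set A lay above set B, but each H2O2 library lay above the controls of its set. In set A the log2 change was 0.18, while in set B it was 0.21 against control replicate 2 and 0.61 against control replicate 3. Jointly it was 0.30 ± 0.12 (95% interval 0.01 to 0.59), with an unadjusted p of 0.0456 and an edgeR adjusted p of 0.171, and was not called. Abcg1 (chromosome 17, 31057694 to 31117984, plus strand) was at 245, 381 and 347 CPM in controls and at 256 and 406 CPM under H2O2. Again each H2O2 library was slightly above its own controls. The change of 0.12 ± 0.07 (95% interval −0.06 to 0.29; edgeR adjusted p = 0.354) was not called.

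Between the 2 sets, the 2 transporters lay in opposite orders. Abca1 in set A was 2.04-fold above set B (log2 1.03 ± 0.12, edgeR adjusted p = 0.00107), and Abcg1 was 1.53-fold lower in set A (log2 −0.61 ± 0.08, adjusted p = 0.00129). Both estimates were larger in size than the H2O2 change of the same gene. Per kilobase, Abcg1 exceeded Abca1 by 2.94 and 2.72 times in the control and H2O2 library of set A, and by 8.80, 10.5 and 8.09 times in the 2 controls and the H2O2 library of set B. The ratio thus followed the set and moved little with H2O2. Of all genes tested, 19.1% were called higher and 16.9% lower in set A.

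The stretches before the start of Abca1 and of Soat1 are shown, since one is the best known LXR-driven efflux gene and the other the member that was called. They come from RefSeq (GRCm38.p6), which gave a promoter for 7 of the 8 genes, without Abcg1. Starts are those of the RefSeq promoters and need not be the ends of the gene spans given here. Each runs 5′ to 3′ on the gene's own (minus) strand over the 250 bases before the start, at chr4:53159896-53160145 for Abca1 and chr1:156474329-156474578 for Soat1. In Abca1 the capitals mark an E-box (CACGTG) and a 16-base stretch like the LXR element, and in Soat1 they mark the core of an antioxidant response element (TGACNNNGC).
Abca1: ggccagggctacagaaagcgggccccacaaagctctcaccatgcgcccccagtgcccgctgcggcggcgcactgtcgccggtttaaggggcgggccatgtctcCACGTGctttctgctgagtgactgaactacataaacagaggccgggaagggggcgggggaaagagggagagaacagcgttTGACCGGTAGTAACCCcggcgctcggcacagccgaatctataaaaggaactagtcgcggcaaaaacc
Soat1: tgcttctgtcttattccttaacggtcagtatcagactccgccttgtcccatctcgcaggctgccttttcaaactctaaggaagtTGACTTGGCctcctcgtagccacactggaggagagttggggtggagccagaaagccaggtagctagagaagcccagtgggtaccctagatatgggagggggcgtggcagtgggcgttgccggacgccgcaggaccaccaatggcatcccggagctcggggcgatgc
The LXR element sought was DR4, 2 copies of AGGTCA with 4 bases between (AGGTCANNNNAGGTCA), on both strands. With at most 2 mismatches it was found in 0 of the 7 members and in 2.57% of 32851 promoter windows of this length. With at most 3, a limit chosen after the sequences were seen, it was found in Abca1 alone, from base 67 to 52 before the start and reading GGGTTACTACCGGTCA on the other strand, and in 18.5% of windows. Its last 5 letters are also the match of GGTCA, which 3 members (Abca1, Apoe, Soat1) and 35.2% of windows held. The E-box of Abca1 lay from base 147 to 142, and 1 of the 7 members and 6.02% of windows held one. The core in Soat1, TGACTTGGC, lay from base 166 to 158, and again 1 of 7 members and 10.2% of windows held it. The GC box GGGCGG was in 3 members (Abca1, Lpcat3, Mylip) and 32.7% of windows. The 16-base stretch of Abca1 lies inside the gene span given here, which ends at 53159988. All windows of Nr1h3 and Apoe lay inside their gene spans, so they do not cover sequence before those spans. Both genes had several windows and were counted by gene, while the shares are per window. These are letter matches in a short window and say nothing of binding.

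**Figure D3:**
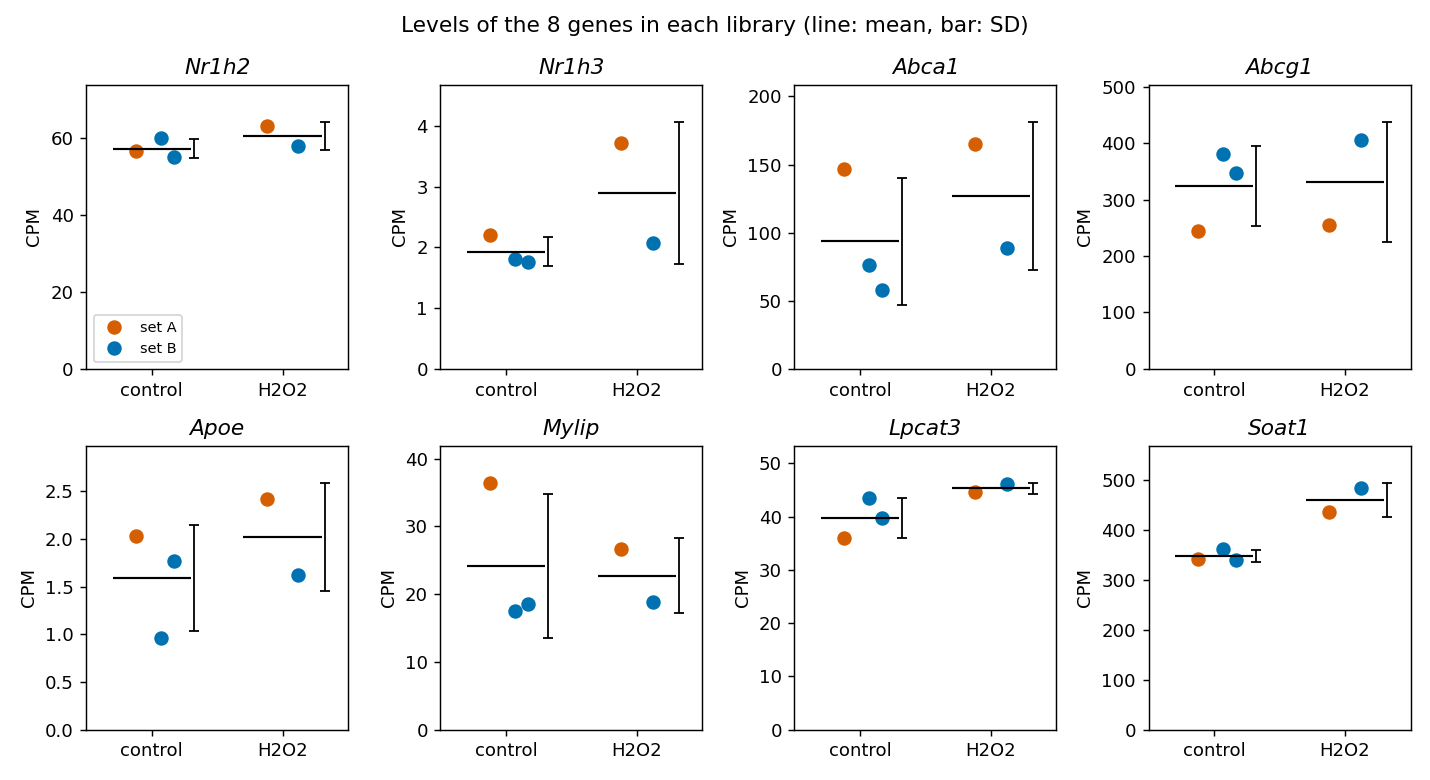
CPM of each of the 8 genes in each library, by group, with the mean and SD (3 control and 2 H2O2 libraries); marker colour gives the set. Soat1 and Lpcat3 have every H2O2 library above every control, while in Abca1, Abcg1 and Mylip the sets lie apart.

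Soat1 and Apoe bear on where cholesterol goes once it is in the cell. Soat1 (chromosome 1, 156428108 to 156474328, minus strand), the acyltransferase that makes cholesteryl esters, was at 342, 361 and 339 CPM in controls and at 436 and 484 CPM under H2O2. The groups did not overlap, and the means were 347 ± 12.2 (SD, n = 3) and 460 ± 34.2 (SD, n = 2). The log2 change was 0.42 ± 0.07, a 1.34-fold rise (edgeR adjusted p = 0.0244), with 0.35 in set A and 0.47 for set B. The sets themselves differed by only −0.09 (adjusted p = 0.386), so Soat1 was not among the genes that lay apart by set. The call was lost under 5 of the 11 alternatives, among them no set term (adjusted p = 0.702), no filter on low counts (0.0560) and the fits without control replicate 3 (0.0958) or H2O2 replicate 2 (0.166), in a range over all alternatives of 0.00138 to 0.702; the estimate kept its direction throughout, from 0.35 to 0.47. Apoe (chromosome 7, 19696244 to 19701310, minus strand) had 35, 16 and 29 counts in controls and 41 and 25 under H2O2, or 2.03, 0.97 and 1.77 CPM against 2.42 and 1.62 CPM. The groups overlapped, and in set B the H2O2 library lay between the 2 controls. Its change of 0.25 ± 0.31 had a 95% interval from −0.48 to 0.98 (edgeR adjusted p = 0.645), so at this depth neither a rise nor a fall was detectable.

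Mylip and Lpcat3 act on uptake and on membranes. Mylip (chromosome 13, 45389742 to 45411940, plus strand) was at 36.4, 17.6 and 18.5 CPM in controls and at 26.6 and 18.8 CPM under H2O2. Set A lay above set B by 1.75-fold (log2 0.81 ± 0.13, edgeR adjusted p = 0.00412). In the library pair of set A it was lower by log2 −0.45 and within set B the difference was 0.06, with −0.18 ± 0.13 jointly (adjusted p = 0.439). The difference between these changes was −0.51 ± 0.18, with an unadjusted p of 0.0261 and an edgeR adjusted p of 0.284, and was not called. The joint estimate turned positive without control replicate 1 (0.051) or without H2O2 replicate 1 (0.061), where it rests on set B alone. Lpcat3 (chromosome 6, 124663094 to 124704716, plus strand) was at 35.9, 43.5 and 39.8 CPM in controls and at 44.6 and 46.1 CPM under H2O2. The H2O2 libraries lay above all controls by a small margin. The change was 0.22 ± 0.09 (95% interval 0.02 to 0.42), with an unadjusted p of 0.0388 and an edgeR adjusted p of 0.156, and was not called. The counts of Lpcat3 were not whole numbers, and the gene overlaps Emg1, which changed by −0.15 ± 0.09. Reads shared between the 2 cannot be told apart here.

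The other LXR targets were given as a list of 21, of which 16 were tested. With edgeR 0 of these were called in either direction, 2 were higher and 4 lower at an unadjusted p under 0.05 (13.7% and 14.1% of all genes), DESeq2 called 2 lower, and limma called 0. The median was −0.05. Lpl, the lipoprotein lipase and the most abundant at 3809 CPM, changed by 0.22 ± 0.08 (adjusted p = 0.134). Srebf1, the regulator of fatty acid synthesis, changed by −0.01 ± 0.07, with 52.7, 45.1 and 44.5 CPM in controls and 52.4 and 44.2 CPM under H2O2. By set, 11 of the 16 were called higher in set A (Acaca, Arl4c, Cd5l, Fads1, Fads2, Fasn, Pltp, Scd1, Smpdl3a, Srebf1 and Tgm2) and 3 lower (Elovl5, Lpl and Scd2). Of all genes tested, 19.1% were called higher and 16.9% lower in set A. Cd5l, a macrophage protein, was 3.53-fold, Smpdl3a 3.38-fold and Scd1, a fatty acid desaturase, 2.24-fold higher in set A. The median set difference of the 16 was 0.47. The enzymes of oxysterols gave 0 calls among 4 tested of 9 listed, with 1 higher and 0 lower at an unadjusted p under 0.05 and 0 calls by DESeq2 or limma.

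**Figure D4:**
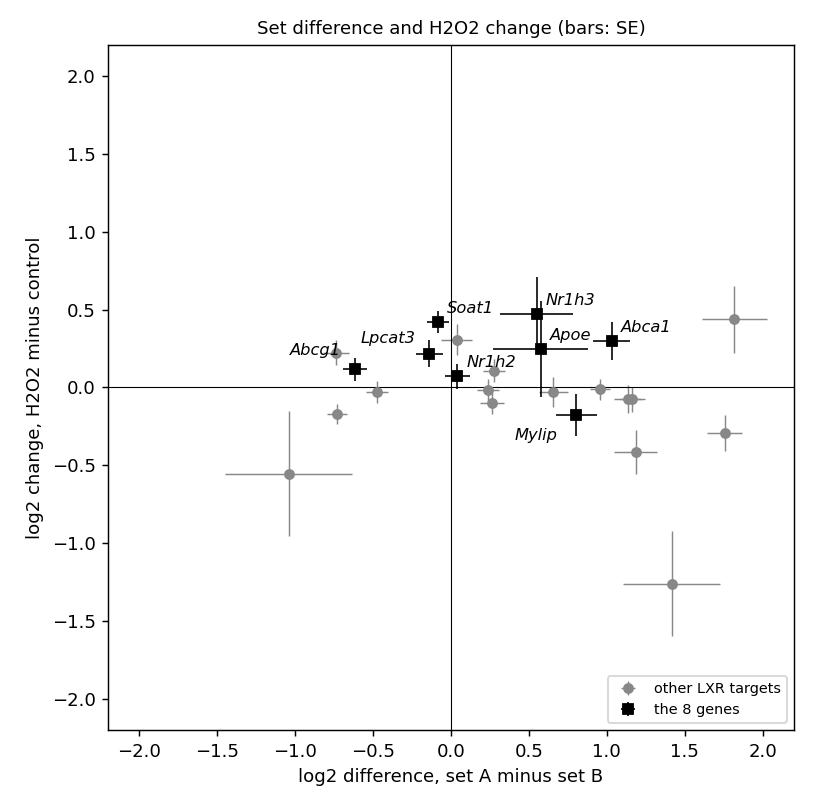
Log2 difference between set A and set B (horizontal) against log2 change under H2O2 (vertical) for the 8 genes (black, named) and the 16 other LXR targets tested (grey), with SE bars. Both axes come from the same libraries, so no relation between them is read; Abca1 at 1.03 and Abcg1 at −0.61 stand on opposite sides of 0 along the horizontal axis.

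Marker transcripts of cell types and of the cell cycle also differed between the sets. Beside the counts below, 19.1% of all genes were called higher and 16.9% lower in set A. Under H2O2 the shares were 3.93% higher and 4.61% lower. All 12 cell cycle genes were called higher in set A, and they summed to 1445, 533 and 840 CPM in control replicates 1, 2 and 3 and to 672 and 376 CPM in H2O2 replicates 1 and 2. Under H2O2, 11 of the 12 were called lower. Of 11 neutrophil markers tested, 9 were lower in set A and 0 higher. Under H2O2 1 was called higher (Mmp8) and 3 lower (Ctsg, Cxcr2 and Mpo), with a median of −0.60. All 13 listed summed to 557 to 1312 CPM in controls and to 964 and 1820 CPM under H2O2, of which Mmp8 alone made up 53.1% to 87.6%. Of 8 mast cell and basophil markers, 7 were lower in set A and 5 were lower under H2O2, with sums of 34.1 to 87.9 CPM against 11.7 and 24.5 CPM. Of 17 macrophage markers tested, 8 were higher in set A and 2 lower, and under H2O2 Cd68 and Maf were higher and C1qb, C1qc and Fn1 lower. Of 12 dendritic cell markers, 6 were lower under H2O2 (Cd74, Dpp4, Flt3, H2-Ab1, Irf8 and Zbtb46) and 0 higher, with sums of 7097 to 8971 CPM against 5862 and 7889 CPM. C1qb was at 19.7 and 9.93 CPM in set A and at most 1.22 CPM in set B. B, T and natural killer cell markers summed to at most 3.32 CPM and erythroid markers to at most 1.95 CPM in any library. The part of these differences in the values of the 8 genes was not tested.

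Among the receptors that take up lipoproteins, 3 genes were higher under H2O2. Of 9 lipoprotein receptor genes, 8 were tested, 3 were called higher (Cd36, Lrp1 and Msr1) and 0 lower, with a median of 0.10. The shares of all genes were 3.93% and 4.61%. DESeq2 and limma each called 3 higher and 0 lower. Cd36, a scavenger receptor for oxidised LDL and fatty acids, was at 951, 1203 and 1135 CPM in controls and at 1633 and 2176 CPM under H2O2, with no overlap. Its log2 change was 0.85 ± 0.07, a 1.80-fold rise (edgeR adjusted p = 0.00570), which was lost with no set term (0.702) and without H2O2 replicate 2 (0.101), in a range over alternatives of 9.76e-16 to 0.702. Lrp1, a receptor for remnants that carry apolipoprotein E, rose 1.54-fold (0.62 ± 0.09, adjusted p = 0.0184) and Msr1, another scavenger receptor, 1.40-fold (0.49 ± 0.10, adjusted p = 0.0331). Without control replicate 2, without control replicate 3 and without H2O2 replicate 2, 2, 2 and 0 of these 3 genes were called.

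Of 18 tested genes for ester hydrolysis and sterol transport, 4 were called higher (Lipa, Nceh1, Osbpl8 and Cav1) and 2 lower (Lipe and Soat2), with a median of 0.04. Over all genes the shares were 3.93% and 4.61%. DESeq2 called 3 and 1, and limma 4 and 2. Lipa, the lysosomal lipase that frees cholesterol from internalised esters, was at 679, 367 and 360 CPM in controls and at 955 and 547 CPM under H2O2. Each H2O2 library lay above the controls of its set, and the change was 0.55 ± 0.07, a 1.46-fold rise (edgeR adjusted p = 0.0149). Nceh1, a cholesteryl ester hydrolase, was at 107, 78.6 and 72.7 CPM in controls and at 135 and 115 CPM under H2O2, and rose 1.40-fold (0.49 ± 0.09, adjusted p = 0.0259). Soat2, the other cholesterol acyltransferase, went the opposite way from Soat1. It was at 4.47, 9.25 and 6.22 CPM in controls and at 1.95 and 2.46 CPM under H2O2, a level 2.75-fold lower (−1.46 ± 0.26, edgeR adjusted p = 0.0259). Lipe, the hormone-sensitive lipase, fell by 0.36 on the log2 scale (adjusted p = 0.0351). Npc2, the most abundant of the list and a lysosomal carrier of cholesterol, changed by 0.05 ± 0.08. Without control replicate 1, 2 or 3, 3, 3 and 1 of the list were called higher and 2, 1 and 1 lower, and without H2O2 replicate 1 or 2, 3 and 0 higher and 2 and 0 lower.

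**Figure D5:**
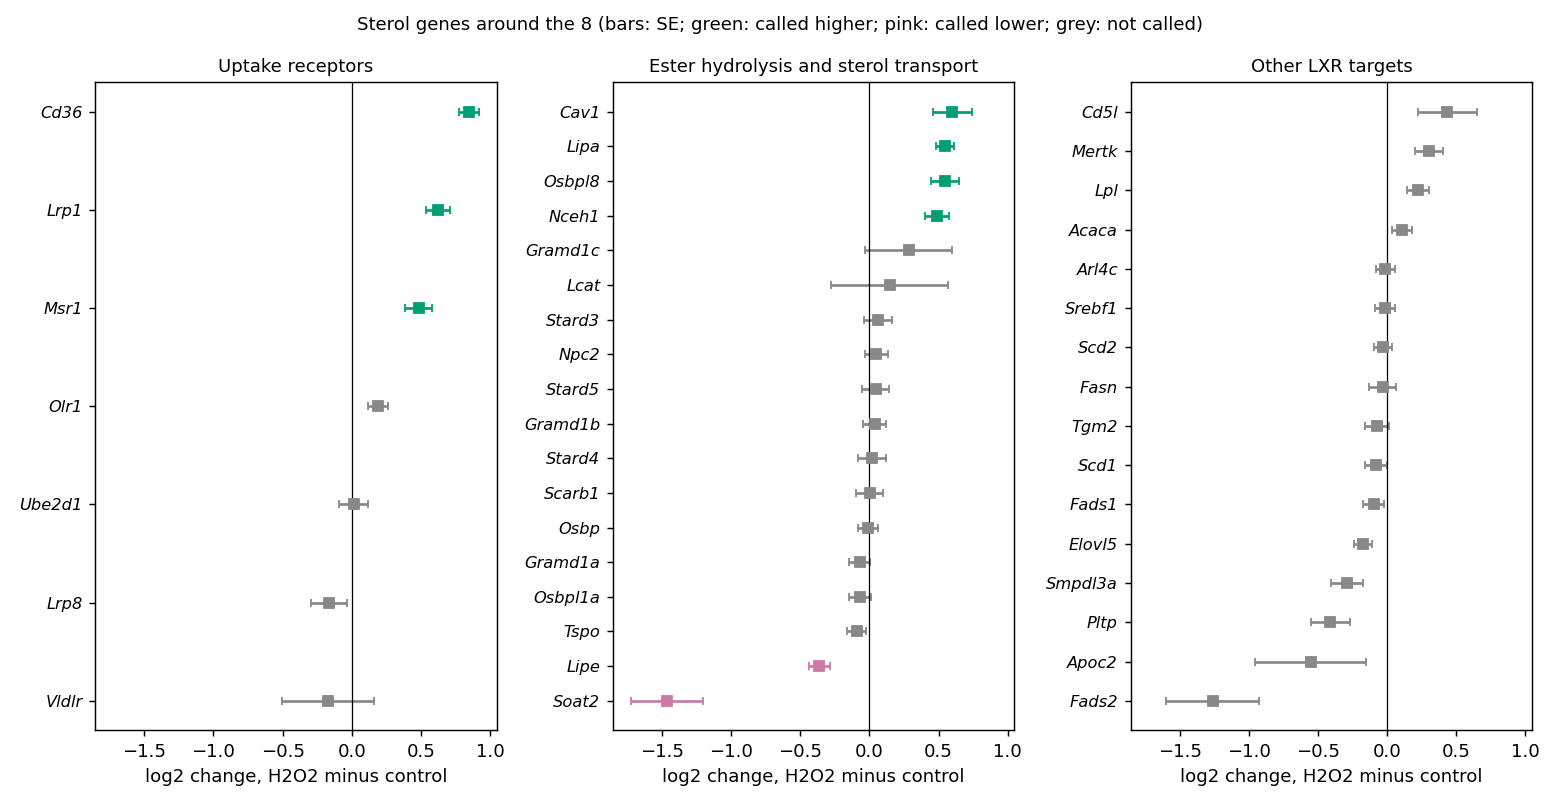
Log2 change under H2O2, with SE bars, of tested genes for lipoprotein uptake, for ester hydrolysis and sterol transport, and of the other LXR targets. Green genes were called higher (Cd36, Lrp1, Msr1, Cav1, Lipa, Osbpl8, Nceh1), pink genes lower (Lipe, Soat2), and 0 of the 16 other LXR targets were called.

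In the lists that remain, calls were few. Of 11 other ABC transporters of the Abca and Abcg families, 0 were called by edgeR, DESeq2 or limma, with 1 higher and 3 lower at an unadjusted p under 0.05 (13.7% and 14.1% of all genes) and a median of −0.19. Abca7, the most abundant, changed by −0.19 ± 0.08. Of 6 tested relatives of Lpcat3 in phospholipid remodelling, 0 were called by edgeR or limma, 4 were lower and 0 higher at an unadjusted p under 0.05 (14.1% and 13.7% of all genes), DESeq2 called 1 lower, and the median was −0.34. Lpgat1, the most abundant, changed by 0.12 ± 0.07. Of 14 genes of cholesterol synthesis under SREBP-2, the regulator that rises when sterol is scarce, Cyp51 was lower (−0.47 ± 0.11, edgeR adjusted p = 0.0421) and 0 were higher, with a median of −0.05. That call was lost without control replicate 1 or 3 and without either H2O2 library. Idi1, the most abundant, changed by −0.43 in set A but by 0.26 in set B.

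For the 4 members whose log2 CPM spanned at least 1 over the 5 libraries, the nearest of 8671 genes were taken by the largest difference in any library after centring. For Abca1 these were Tnfrsf1b (0.07), Sdc1 (0.10) and Ly9 (0.15). For Mylip they were Nedd4l (0.10), Ube2e3 (0.11) and Caprin2 (0.13), and for Nr1h3 Osgin1 (0.07), Lpar6 (0.13) and Htr2a (0.14). Apoe, with few counts, had no close neighbour, the nearest being Dgcr8 at 0.24, Kcnh6 at 0.24 and Fpr1 at 0.25.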

How the data were processed

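The deposited files hold an estimated count of reads for each gene, made by the authors with no scaling, per the file headers and values: 8.38% to 9.03% of values per library were not whole. HISAT, Bowtie2 and the build GRCm38.p6 are named in the submitters' processing notes. The sources used here do not give the counter, its annotation or its strand setting. Symbols came from a RefSeq table of the same build, which matched 17520 of 17567 rows (99.73%). Counts were rounded, filtered with filterByExpr (minimum count 10, minimum total 15) and scaled with TMM factors. H2O2 was tested with edgeR 4.0.16 (R 4.3.3), a quasi-likelihood F test with a set term (2 residual degrees of freedom) and Benjamini-Hochberg adjustment over 12209 genes. The same fit gave the set difference, and an interaction term (1 residual degree of freedom) the difference between sets. Alternatives were no set term, a replicate block, DESeq2 1.42.0, limma 3.58.1, DESeq2 size factors, no filter and each library left out. CPM, sums over lists included, uses TMM-scaled totals. Totals of 16232604 to 16672491 counts make genes near 2 CPM imprecise. Transcript lengths are the longest coding transcripts of the GENCODE annotation supplied. The fit was also run on simulated data, with settings and outcome not given here, so no call rests on that run.

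The members and gene lists were chosen with earlier results of these data known. Named genes are the 8 members, the 2 called genes of lowest p and the most abundant gene of each list, and the nearest patterns; Msr1, Osbpl8, Cav1, Lipe, Soat2, Srebf1, Rxrb, Cd5l, Smpdl3a, Scd1, C1qb, Chil3 and the genes enumerated as called were named after their values were seen. Values of some listed genes are not reported here.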

Additional observations from a re-analysis of the deposited data

How the results depend on the processing

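With no set term, 0 genes were called higher and 0 lower, against 480 and 563. The replicate block gave 220 and 334, and no filter on low counts 60 and 42. Each of these 3 called 0 of the 8 members. Leaving out 1 library gave between 1 and 1248 genes higher and between 0 and 816 lower, with 0 to 1 members called; without a library of set A the fit rests on set B alone. The lowest counts came without H2O2 replicate 2, where the H2O2 change rests on set A alone, 1 library against 1. The count of members called lower was 0 under every alternative. Of 88 recomputed member values, 81 kept direction and side of the threshold, 5, all of Soat1, were no longer past it (replicate block adjusted p = 0.0643), and 2 were those of Mylip, which ran from −0.456 to 0.061 (0.051 without control replicate 1). Same-numbered libraries correlated in their deviations (0.81 and 0.71), but so did control replicate 3 and H2O2 replicate 2, both of set B (0.66). Pairs from different sets gave the same sizes with a minus sign (−0.66 to −0.81). With only 2 H2O2 libraries these values mirror the positive ones, so they add no evidence on pairs or on sets. The labels do not pair the same-numbered libraries and there are only 2 such pairs, so the paired fit is given here only.

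The named pathway genes were recomputed under the same alternatives, a choice made after seeing the data. Of the 13 called, all 13 lost the call with no set term and without H2O2 replicate 2, 11 with no filter, 9 without control replicate 3, 8 with the replicate block, 6 without control replicate 2, 4 in DESeq2, 3 without H2O2 replicate 1 and 2 without control replicate 1; 0 changed sign. Abca7 was called lower without control replicate 1 (−0.28). Among uncalled genes the sign turned for Ncor1 (−0.107 to 0.012 when 1 library was left out), Idi1 (0.012 with no set term, −0.436 to 0.266 when 1 library was left out) and Npc2 (−0.001 with the replicate block, −0.06 to 0.132 when 1 library was left out). The causes were not tested. Depth limits Nr1h3 and Apoe, which had 16 to 63 counts per library.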
